A study of Mus musculus with 4 samples.

Results

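The 40 kb bins next to the centromeric end of mouse autosomes 1 to 11, 13, 14 and 17 were examined for contacts with other chromosomes in Hi-C maps of male mouse embryonic stem cells (mESCs). A bin was a member if its start lay from 3 Mb to below 8 Mb of the mm9 assembly and if it was kept in both maps after correction. Of 1750 bins in these windows, 1617 were members, which is 2.59% of the 62362 bins kept in both maps genome-wide. The 133 that were dropped lay mostly on chromosome 14, where only 27 members remained, on chromosome 17, with 112 members, and on chromosome 7, with 106. Each other chromosome had 124 or 125. The contacts were those between members on different chromosomes, over 91 pairs of chromosomes, and they were compared with contacts of members to chromosome interiors, which lie at least 20 Mb from both ends, and to distal ends, which are the last 5 Mb.

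Hi-C ligates DNA ends that lie close together in the nucleus and counts the joined fragments. The wild-type (WT) cells were the male N3 line, grown in 2i medium, and the Firre KO cells were male mESCs labelled as a knockout of Firre, an X-linked long non-coding RNA gene, grown in 2i medium on irradiated feeder fibroblasts that were depleted before use. The labelled genotype and the culture thus differed together, one passage of the study describes feeders for both, and no source used here ties the Firre KO cells to the N3 line. Chromatin of both was cut with HindIII and ligated in situ, and the 2 libraries of a group, technical duplicates per the methods, were pooled by the authors in 1 matrix. There was therefore no replicate to test against, and every interval below is a 95% interval of counting error only.

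Mouse chromosomes have their centromere at one end. The assembled sequence of each autosome begins at 3 Mb, and the stretch before it stands for the centromeric satellite arrays, which are made of short units repeated in tandem and are packed as constitutive heterochromatin. In interphase nuclei, pericentromeric heterochromatin of several chromosomes gathers in shared bodies, the chromocenters, and chromosomes 12, 15, 16, 18 and 19, which are not members, carry the ribosomal RNA genes near their centromeres. Sequence close to centromeres is often duplicated between chromosomes, and reads from such copies are hard to place.

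Stretches that members of different chromosomes share, and a tandem repeat, are shown first, in mm9. Whether reads from them were placed at the wrong copy was not tested. Among member bins of different chromosomes that share sequence, those with the most read pairs in WT lay on chromosomes 11 and 17. An identical stretch of 366 bases occurs at chr11:3028503-3028868, in Pisd-ps1, and at chr17:3079655-3080020, in Pisd-ps2, both annotated as processed transcripts. Capitals mark the first 100 bases of the identical stretch, and the 20 bases in lower case lie before it.
chr11:3028483-3028602, plus strand: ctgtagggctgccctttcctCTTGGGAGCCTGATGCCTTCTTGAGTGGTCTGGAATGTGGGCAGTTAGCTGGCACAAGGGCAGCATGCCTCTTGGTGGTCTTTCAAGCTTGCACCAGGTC
chr17:3079921-3080040, minus strand: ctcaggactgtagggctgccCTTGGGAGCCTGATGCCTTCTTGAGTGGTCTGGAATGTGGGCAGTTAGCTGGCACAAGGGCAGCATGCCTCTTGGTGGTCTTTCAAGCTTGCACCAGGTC

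Chromosomes 4 and 13 and chromosomes 4 and 6 are shown next, since a single bin of chromosome 4 took part in both. This bin, chr4:3160001-3200000, holds the transcript AI838599 and the pseudogene Gm11783. It shared 7481 stretches of 32 bases (32-mers) with chr13:3000001-3040000 and 6209 with chr6:3120001-3160000. The identical stretches shown were of 324 bases with chromosome 13 and of 262 bases with chromosome 6, and capitals again mark the first 100 bases of each.
chr4:3175148-3175267, plus strand: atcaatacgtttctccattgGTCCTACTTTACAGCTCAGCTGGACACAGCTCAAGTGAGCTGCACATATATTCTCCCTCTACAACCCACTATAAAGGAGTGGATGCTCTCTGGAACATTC
chr13:3002115-3002234, plus strand: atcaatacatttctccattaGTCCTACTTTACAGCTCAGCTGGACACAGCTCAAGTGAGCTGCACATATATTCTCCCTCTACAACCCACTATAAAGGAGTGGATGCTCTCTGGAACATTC
chr4:3165973-3166092, plus strand: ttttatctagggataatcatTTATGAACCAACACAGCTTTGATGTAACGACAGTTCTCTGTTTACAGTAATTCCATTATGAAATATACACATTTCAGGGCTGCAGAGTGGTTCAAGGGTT
chr6:3144063-3144182, plus strand: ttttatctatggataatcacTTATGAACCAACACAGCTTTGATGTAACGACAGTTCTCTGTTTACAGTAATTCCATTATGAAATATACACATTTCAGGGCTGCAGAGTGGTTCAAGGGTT

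Of all members, the one with the strongest tandem repeat lay at the start of chromosome 9. In the first bin of chromosome 9, chr9:3000001-3040000, 69.4% of bases matched the base 234 positions further on. The best such match at any distance searched had a median of 28.4% over the 1617 members. A unit of 234 bases is that of the mouse major satellite, and the bin is annotated with Gm16869 at these units. Adjacent units matched at 229 of 234 bases, and capitals mark the 5 that differ.
chr9:3027538-3027771, plus strand: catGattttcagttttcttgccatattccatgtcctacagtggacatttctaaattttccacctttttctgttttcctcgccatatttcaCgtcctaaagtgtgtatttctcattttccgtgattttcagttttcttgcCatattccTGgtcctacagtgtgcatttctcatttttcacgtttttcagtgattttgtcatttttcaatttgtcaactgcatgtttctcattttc
chr9:3027772-3028005, plus strand: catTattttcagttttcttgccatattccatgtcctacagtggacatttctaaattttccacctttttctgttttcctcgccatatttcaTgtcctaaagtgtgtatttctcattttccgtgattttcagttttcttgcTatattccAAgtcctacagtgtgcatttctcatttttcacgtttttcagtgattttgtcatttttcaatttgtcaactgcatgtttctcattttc

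The matrices held 65611035 read pairs in WT and 46635652 in the map labelled Firre KO, of which 16.1% and 35.6% joined different chromosomes. Between members of different chromosomes there were 17022 and 19952 read pairs over 1209526 pairs of bins, so single pairs of bins were mostly empty and values were averaged over many. The bin that lies wholly within the Firre gene (6720401G13Rik, chrX:47908921-47988498), chrX:47920001-47960000, held 1973 read pairs in WT and 2109 in the map labelled Firre KO, against medians of 517.5 and 568 in 6 flanking bins. Per the methods, the allele of the knockout mice lacks the whole gene and thus this bin, so the value in this bin goes against the label. The second matrix is therefore called the map labelled Firre KO throughout.

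Pericentromeric bins contacted each other more than they contacted the interiors or distal ends of other chromosomes. Contacts are given as observed over expected, which is the mean corrected contact of a class of bin pairs over the mean of all bin pairs of the same chromosome pairs. For classes in which a chromosome has no bins, the expected value was still the mean over all 91 pairs. Members of different chromosomes had an observed over expected contact of 1.84 (1.79 to 1.90) in WT and 1.71 (1.66 to 1.77) in the map labelled Firre KO. With the interiors of other chromosomes the same bins had 1.00 (0.995 to 1.01) and 1.04 (1.03 to 1.04). With distal ends they had 1.01 (0.986 to 1.04) and 1.03 (1.01 to 1.06). Contact among members was therefore 1.84-fold (1.79 to 1.90) that with interiors in WT and 1.65-fold (1.60 to 1.70) in the map labelled Firre KO, and 1.82-fold (1.76 to 1.90) and 1.66-fold (1.60 to 1.73) that with distal ends. The intervals of the compared classes did not overlap in either matrix. The size depended on the expected value and on the bins. On the log2 scale the excess over distal ends was 0.87 in WT and 0.73 in the map labelled Firre KO. It was 1.69 and 1.13 for read pairs over the product of bin totals, pooled over bin pairs and not averaged over chromosome pairs. Without bins below 4 Mb it was 0.49 and 0.43.

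Distal ends also contacted each other above expectation, with 2.47 (2.43 to 2.51) in WT and 1.56 (1.54 to 1.59) in the map labelled Firre KO, while members and distal ends met at close to the expected rate. Of the interchromosomal contact of a member, 4.79% went to other members in WT and 4.03% in the map labelled Firre KO. For an interior bin, 2.60% and 2.64% of interchromosomal contact went to members.

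**Figure D1:**
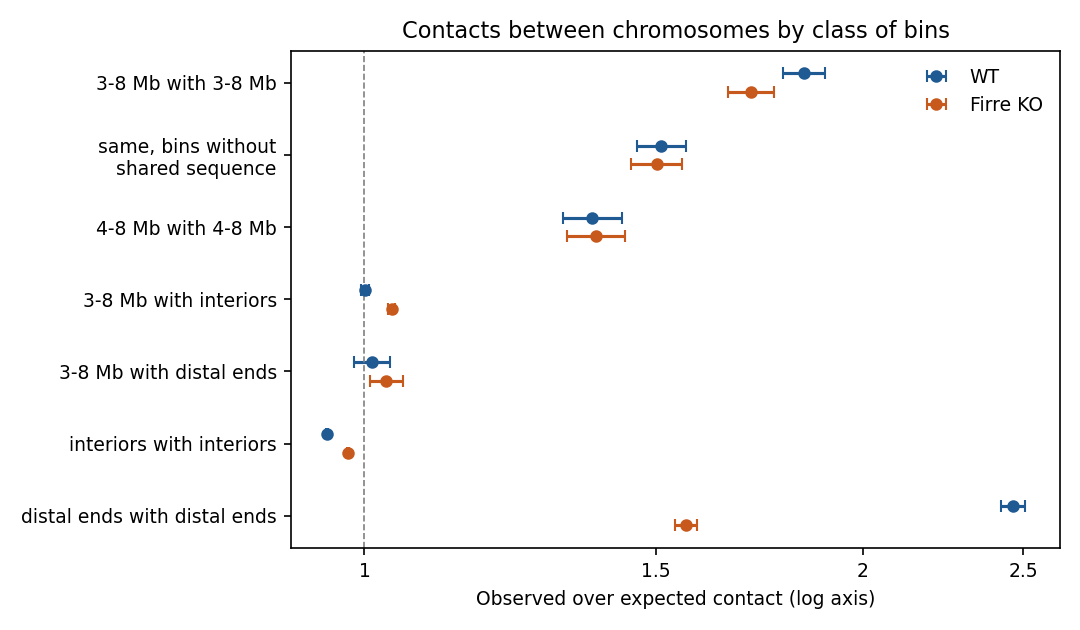
Observed over expected contact between bins of different chromosomes (log axis), by class of bins, for WT (blue) and the map labelled Firre KO (orange); points are means over chromosome pairs and bars are 95% counting intervals. Members at 3 to 8 Mb lie at 1.84 and 1.71 with each other and between 1.00 and 1.04 with interiors and distal ends, and at 1.37 and 1.38 with each other from 4 Mb.

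Between the matrices, the difference in contact among members depended on the bins and on the expected value. The log2 observed over expected value was 0.88 in WT and 0.78 in the map labelled Firre KO, which differ by -0.11 (-0.17 to -0.04). With each chromosome pair over its own mean, the median of the pairs gave a difference of 0.036. Its interval, -0.0259 to 0.0978, uses the counting error of the mean, since that of the median was not computed. Over the mean of all 91 pairs instead, the medians were 1.63 in WT and 1.62 in the map labelled Firre KO. Without chromosome 11 the difference was -0.000469 (-0.0709 to 0.07). The interval also included 0 without chromosome 4, 6 or 17, with differences of -0.05, -0.05 and -0.06. Other choices gave a larger difference, with -0.36 for read pairs over the product of bin totals, -0.29 for the window of 3 to 6 Mb, -0.27 at like GC, -0.24 for the product of totals as the expected value, -0.24 without chromosome 14 and -0.18 without chromosome 5. The choices at like GC or with totals also pooled over bin pairs in place of averaging chromosome pairs. What each of these changes added cannot be told apart. Among the 1296 members from 4 Mb onward the log2 value was 0.46 in both, with a difference of 0.01 (-0.08 to 0.09). Among members below 4 Mb observed over expected contact was 9.93 (9.22 to 10.7) in WT and 5.91 (5.51 to 6.33) in the map labelled Firre KO, a log2 difference of -0.75 (-0.90 to -0.60). Without bins that start below 3.2 Mb the overall difference was 0.05 on the log2 scale, with an interval of -0.0173 to 0.118 that includes 0. Without bin pairs of 5 or more read pairs it was -0.0177 (-0.0813 to 0.046). For comparison, the log2 difference was -0.66 (-0.69 to -0.62) for distal ends with each other, 0.05 (0.04 to 0.07) for members with interiors and 0.03 (-0.02 to 0.08) for members with distal ends.

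These values are relative to the interchromosomal mean of each matrix, which itself differed. As a part of the total contact of a bin, the mean contact between members was 2.10 times as high in the map labelled Firre KO as in WT. This ratio for members with interiors was 2.35 and for members with distal ends 2.31. All these classes thus held more of the total in the map labelled Firre KO, in which culture and the labelled genotype cannot be told apart. The ratio for members with each other was the lowest of these 3. It was lower still for distal ends with each other, 1.43, and for pericentromeric bins of the ribosomal DNA chromosomes with each other, 1.53. For interiors with each other it was 2.33.

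The slope of contact among pericentromeric bins was steepest at the start of the assembled sequence. When bins at the same distance from the centromeric end were paired in classes of 1 Mb, WT gave 9.93 at 3 to 4 Mb, 1.57 (1.36 to 1.80) at 4 to 5 Mb, 1.65 (1.46 to 1.86) at 5 to 6 Mb, 1.33 (1.15 to 1.55) at 6 to 7 Mb and 1.19 (1.00 to 1.42) at 7 to 8 Mb. The matrix labelled Firre KO gave 5.91, 1.5 (1.30 to 1.74), 1.30 (1.17 to 1.44), 1.28 (1.09 to 1.5) and 1.54 (1.32 to 1.79). Chromosome 14 had no members at 3 to 4 Mb or at 5 to 6 Mb. Those classes hold 78 chromosome pairs, and the others of the window 91. The log2 value was lower at 7 to 8 Mb than at 3 to 4 Mb by 3.06 (2.78 to 3.33) in WT and by 1.94 (1.70 to 2.18) in the map labelled Firre KO. With the median of chromosome pairs, each over its own mean, these were 1.68 and 1.21, and without chromosome 4 they were 2.32 and 1.62. Without bins that start below 3.2 Mb they were 1.12 and 0.78, and without bins with shared sequence, as defined below, 1.40 and 0.84. Without chromosome 14 they were 3.02 and 2.15. With all members, most of the slope lay between the first class and the next: from 4 to 5 Mb to 7 to 8 Mb the difference was 0.39 (0.07 to 0.71) in WT and -0.04 (-0.34 to 0.27) in the map labelled Firre KO, the latter within counting error.

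Classes of 200 kb placed the steepest part at the very start. Bins at 3.0 to 3.2 Mb had an observed over expected contact of 124 (109 to 140) in WT, from 3350 read pairs, and of 48.8 (41.7 to 57.1) in the map labelled Firre KO, from 1946. The next class, at 3.2 to 3.4 Mb, had 3.60 (2.54 to 5.11) and 4.04 (2.99 to 5.47) from 43 and 68 read pairs. Bins at 3.4 to 3.6 Mb had 3.18 (2.14 to 4.72) and 2.82 (2.07 to 3.85). Those at 3.6 to 3.8 Mb had 3.42 (1.83 to 6.38) and 1.69 (1.07 to 2.68), from 25 and 22 read pairs, with overlapping intervals, and those at 3.8 to 4.0 Mb had 2.36 (1.37 to 4.05) and 2.42 (1.63 to 3.58). After 4 Mb the 200 kb classes held 5 to 39 read pairs each and their intervals mostly included 1, so no trend can be read from them at this depth.

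**Figure D2:**
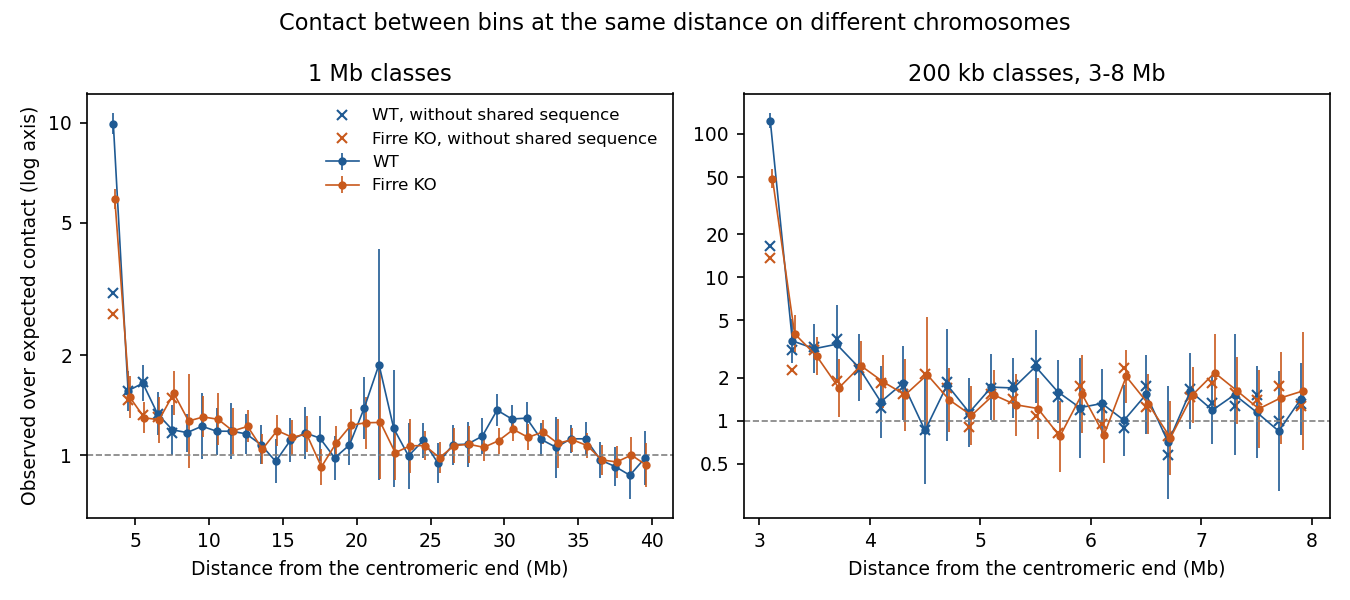
Observed over expected contact (log axes) between bins at the same distance from the centromeric end on different chromosomes, in 1 Mb classes to 40 Mb (left) and in 200 kb classes from 3 to 8 Mb (right), for WT (blue) and the map labelled Firre KO (orange); bars are 95% counting intervals and crosses leave out bins with shared sequence. The first 200 kb class stands at 124 and 48.8, and at 16.6 and 13.6 without bins with shared sequence, while the medians of the classes beyond 8 Mb lie between 1.07 and 1.19.

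Beyond the window the like-distance contact was mostly close to expectation. In the 12 classes from 8 to 20 Mb the median was 1.14 in WT, with a range of 0.960 to 1.22, and 1.19 in the map labelled Firre KO, with a range of 0.924 to 1.31. In the 20 classes from 20 to 40 Mb the medians were 1.11 and 1.07. The class with the highest value there, at 21 to 22 Mb, had 1.88 in WT with an interval of 0.842 to 4.18. At 20 to 21 Mb it was 1.39 (1.12 to 1.72) in WT and 1.25 (1.05 to 1.5) in the map labelled Firre KO. At 29 to 30 Mb the value in WT was 1.37 (1.22 to 1.53), at 30 to 31 Mb 1.29 (1.16 to 1.42) and at 31 to 32 Mb 1.29 (1.16 to 1.45). In WT 6 of the 20 classes from 20 to 40 Mb were above the member class at 7 to 8 Mb, and in the map labelled Firre KO 0 of 20 were.

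Seen from the members, contact with other chromosomes declined over a much longer distance. Members had 3.45 (3.33 to 3.57) with the class at 3 to 4 Mb of other chromosomes in WT and 2.67 (2.57 to 2.77) in the map labelled Firre KO. With the class at 4 to 5 Mb they had 1.59 (1.52 to 1.66) and 1.54 (1.46 to 1.62). In the 12 classes from 8 to 20 Mb the median was 1.34 in WT and 1.33 in the map labelled Firre KO, and in the 20 classes from 20 to 40 Mb it was 1.18 and 1.20. Each of these classes had an interval above 1 in both matrices. Members from 4 Mb alone gave medians of 1.26 and 1.27 at 8 to 20 Mb and of 1.14 and 1.16 at 20 to 40 Mb.

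Counted from the distal end, the members showed no such slope. Over the 39 classes from 1 to 40 Mb off the distal end the values ran from 0.818 to 0.997 in WT and from 0.893 to 1.02 in the map labelled Firre KO, and none had an interval above 1. The last megabase of other chromosomes was the exception, with 1.19 (1.13 to 1.25) in WT and 1.18 (1.12 to 1.25) in the map labelled Firre KO. 

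**Figure D3:**
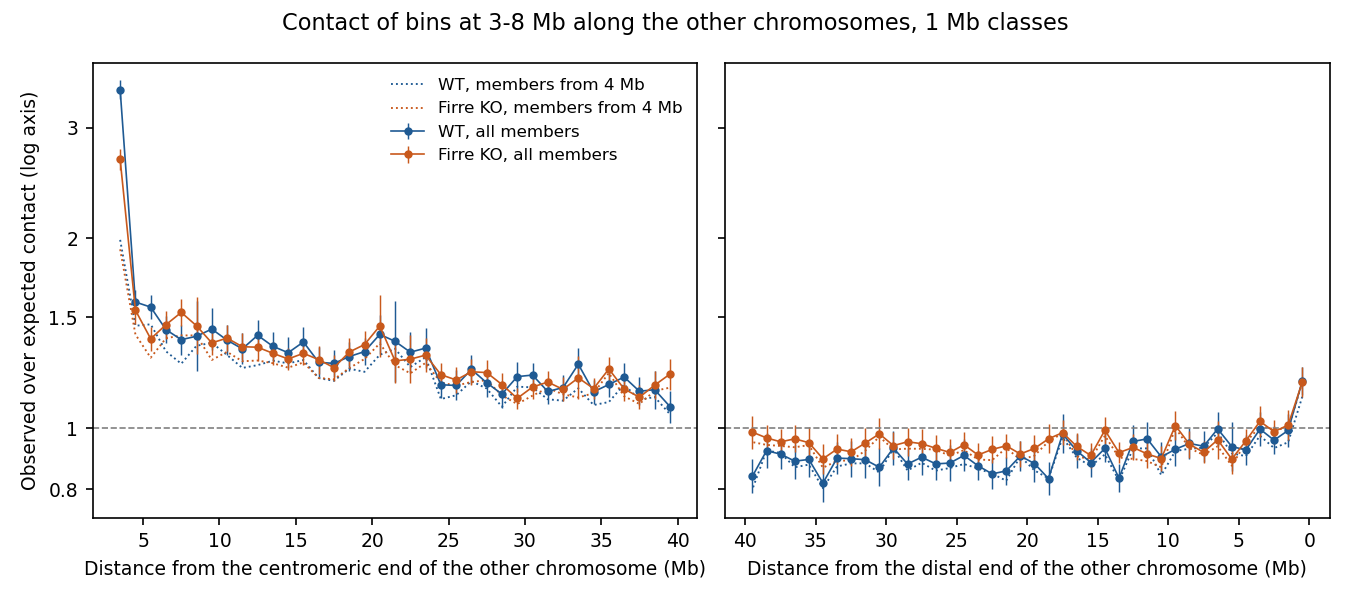
Observed over expected contact (log axis) of members with 1 Mb classes of other chromosomes, by distance of the class from the centromeric end (left) and from the distal end (right), for WT (blue) and the map labelled Firre KO (orange); bars are 95% counting intervals, and dotted lines use members from 4 Mb only. Contact stands at 3.45 and 2.67 with the first class, stays above 1 to 40 Mb, and lies mostly below 1 on the distal side except in the last megabase, at 1.19 and 1.18.

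Shared sequence moved with the contact at the start of the chromosomes. A bin was counted as sharing sequence if it held at least 1000 32-mers that also occur in a member bin of another chromosome. Of the members, 180 (11.1%) did so, on 13 of the 14 chromosomes. They were concentrated at the start, with 79 below 4 Mb and 69 of those below 3.6 Mb. Chromosome 5 had the most, 20, chromosome 17 had 4 and chromosome 14 had none. Only members were searched, so no share of other bins can be set beside the 11.1%.

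A 32-mer that occurred in more than 20 members was not counted. Pairs of bins with more shared sequence had more contact. In the groups by number of shared 32-mers, the mean was taken over bin pairs and not over chromosome pairs. Their values are therefore not on the same base as those of members given above. Pairs that shared no 32-mer had an observed over expected contact of 1.76 in WT and 1.61 in the map labelled Firre KO. Pairs that shared 1000 to below 4000 had 78.1 (60.8 to 100) and 25.6 (20.3 to 32.1), and pairs that shared 4000 or more had 791 (599 to 1046) and 331 (241 to 454). The 626 pairs that shared 1000 or more were few and held 5.22% of the contact among members in WT and 2.34% in the map labelled Firre KO. Whether these read pairs reflect contact in the nucleus or reads placed at the wrong copy was not tested.

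Bins without shared sequence kept a part of the contact. Pairs in which neither bin shared sequence had 1.51 (1.46 to 1.56) in WT and 1.5 (1.45 to 1.56) in the map labelled Firre KO, 1.53-fold (1.48 to 1.58) and 1.46-fold (1.41 to 1.51) their contact with interiors. Pairs in which both bins shared sequence had 20.3 (18.8 to 22.1) and 8.0 (7.25 to 8.83). Without sharing bins the class at 3 to 4 Mb had 3.08 in WT and 2.66 in the map labelled Firre KO, in place of 9.93 and 5.91, and the first 200 kb had 16.6 and 13.6 in place of 124 and 48.8. From 4 Mb onward the classes moved little when these bins were left out, with 1.57 at 4 to 5 Mb in WT both with and without them, and 1.5 and 1.46 in the map labelled Firre KO.

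Single pairs of bins carried many of the reads among members, and other classes of bins were not counted in this way. Of 17022 read pairs among members in WT, 22.1% lay in 168 pairs of bins with at least 5 read pairs, and these held 8.42% of the corrected contact. In the map labelled Firre KO 165 such pairs held 10.9% of read pairs and 2.25% of contact. The strongest joined chr11:3000001-3040000, the bin of Sfi1 and Pisd-ps1, to chr17:3040001-3080000, which holds most of the identical stretch shown above, with 1091 read pairs in WT and 507 in the map labelled Firre KO. Together with neighbouring bins, 5 pairs of bins between these chromosomes held 2225 and 1033 read pairs, which is 13.1% and 5.18% of all read pairs among members. In 3 of these 5 pairs the bins shared fewer than 1000 32-mers, among them chr11:3040001-3080000 with chr17:3040001-3080000, which shared none and had 450 and 310 read pairs.

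The bin chr4:3160001-3200000 had strong contacts with several chromosomes. It had 67 read pairs in WT and 25 in the map labelled Firre KO with chr13:3000001-3040000, and 50 and 12 with chr6:3120001-3160000. With chromosome 8 it had 38 and 17 read pairs at chr8:3040001-3080000 and 45 and 1 at chr8:3240001-3280000. It shared no 32-mer with either, and another bin, chr8:3120001-3160000, had 63 and 17. With chr8:3000001-3040000, with which it shared 6769 32-mers, it had 13 read pairs in WT and 18 in the map labelled Firre KO, and after correction the observed over expected contact was 5363 and 3674. With chr11:3040001-3080000 it had 7 and 17 read pairs, and 26.1 and 26.7 after correction. A pair with reads in only 1 matrix was chr5:3080001-3120000 with chr13:3080001-3120000, which had 0 read pairs in WT, 22 in the map labelled Firre KO and no shared 32-mer.

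The satellite bin of chromosome 9 differed widely between the matrices in reads. It had 19892 read pairs in WT and 1740 in the map labelled Firre KO, where the median member had 1601 and 1170. Of its interchromosomal read pairs, 67.4% in WT and 63.2% in the map labelled Firre KO went to 1 bin in the interior of chromosome 2, chr2:98480001-98520000. It had 233 and 41 read pairs with members of other chromosomes, and after correction its observed over expected contact with them was 8.83 in WT and 3.70 in the map labelled Firre KO.

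Each chromosome except chromosome 14 in WT had pericentromeric contact above expectation in both matrices. For single chromosomes and single pairs of chromosomes, the expected value was the mean over all 91 pairs. In WT the value was 2.57 (2.39 to 2.75) for chromosome 4, 2.39 (2.29 to 2.5) for chromosome 11 and 2.33 (2.16 to 2.51) for chromosome 6, and against the means of their own chromosome pairs it was 2.53, 2.03 and 2.44. On that scale chromosomes 13 and 7, with 2.11 and 2.06, were also above chromosome 11. With the mean over all pairs as the expected value, WT had a median of 1.90 over the 14 chromosomes. The lowest was that of chromosome 14, 0.944 (0.749 to 1.19), from 27 bins and 113 read pairs, followed by chromosome 2 with 1.34 (1.25 to 1.44). In the map labelled Firre KO the values ran from 1.34 (1.27 to 1.41) for chromosome 11 to 1.98 (1.81 to 2.16) for chromosome 4, with a median of 1.77. Contact with members exceeded that with interiors for 13 of 14 chromosomes in WT and for 14 of 14 in the map labelled Firre KO.

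Individual chromosomes differed between the matrices in both directions. The value in the map labelled Firre KO was lower for 9 of 14 chromosomes, with intervals that did not overlap for 4 below WT and 2 above. Chromosome 5 was higher in the map labelled Firre KO, with 1.52 (1.39 to 1.66) in WT and 1.89 (1.76 to 2.02) there. Chromosome 11 had 2.39 in WT and 1.34 in the map labelled Firre KO, and chromosome 14 had 0.944 and 1.86 (1.57 to 2.19). From 4 Mb onward these were the only chromosomes with intervals apart, with 1.80 (1.68 to 1.93) and 1.19 (1.11 to 1.28) for chromosome 11 and 0.967 (0.749 to 1.25) and 1.68 (1.39 to 2.04) for chromosome 14. Chromosome 4 had 1.25 (1.13 to 1.37) and 1.34 (1.21 to 1.48) there, so its high value over the whole window rested on bins below 4 Mb. Contact with interiors differed the same way for members of both, with 1.39 in WT and 1.21 in the map labelled Firre KO for chromosome 11 and 1.00 and 1.28 for chromosome 14.

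**Figure D4:**
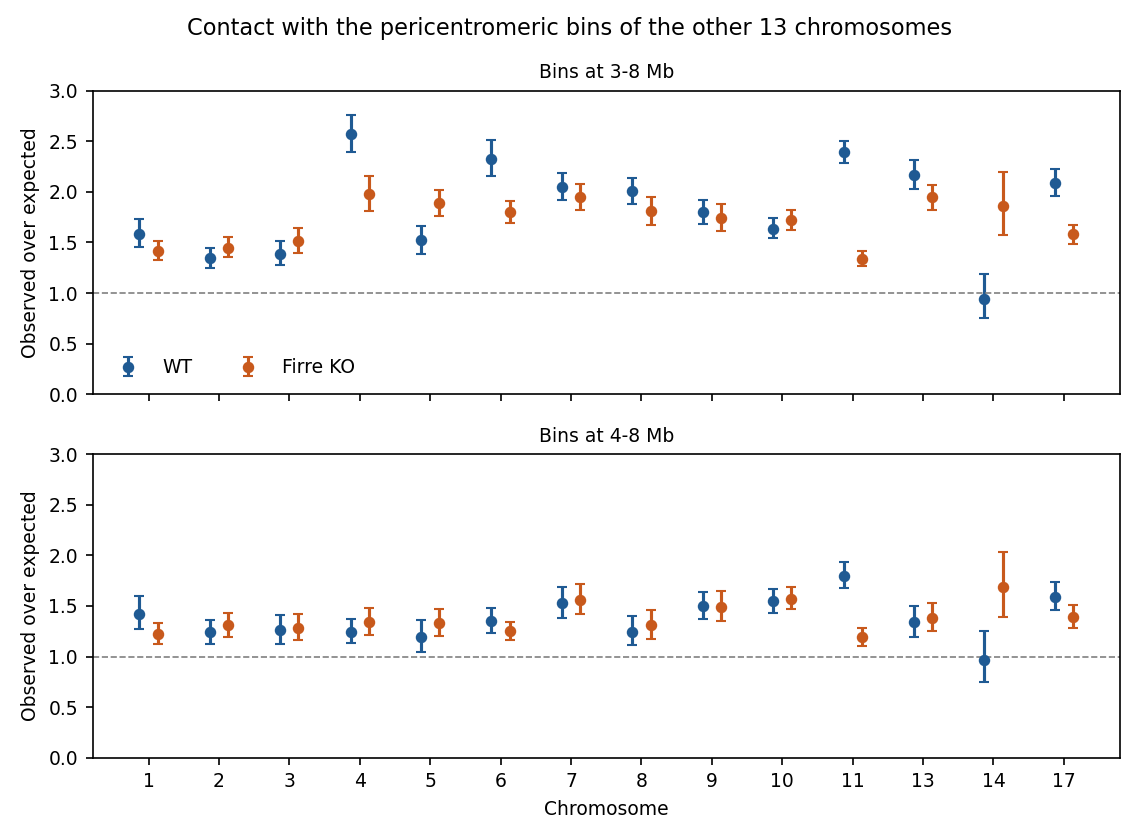
Observed over expected contact of the members of each chromosome with members of the other 13 chromosomes, for bins at 3 to 8 Mb (top) and at 4 to 8 Mb (bottom), in WT (blue) and the map labelled Firre KO (orange), with 95% counting intervals. Values over the whole window run from 0.944 to 2.57 in WT and from 1.34 to 1.98 in the map labelled Firre KO, and from 4 Mb only chromosomes 11 and 14 have intervals apart.

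Most pairs of chromosomes showed the contact. It was above 1 in 81 of 91 pairs in WT and in 88 of 91 in the map labelled Firre KO, with medians of 1.63 and 1.62, and it was higher in the map labelled Firre KO in 43 of 91 pairs. Against the mean of the own pair it was above 1 in 81 and 87 of 91. The highest value in WT was 7.28 for chromosomes 4 and 6, which had 2.91 in the map labelled Firre KO. Chromosomes 11 and 17 had 5.42 and 2.14, and all their bin pairs together had 1.38 and 1.25 times the mean over all pairs, so that their place among the pairs depended on the expected value. From 4 Mb chromosomes 4 and 6 had 1.08 and 0.913, and chromosomes 11 and 17 still had 3.63 and 1.88. Chromosomes 7 and 11 had 2.7 and 1.01 from 4 Mb, from 134 and 85 read pairs. In the map labelled Firre KO the highest value was 3.82 for chromosomes 5 and 13, which had 1.34 in WT, and from 4 Mb these had 1.15 in the map labelled Firre KO and 0.872 in WT. The lowest value in WT, 0.174 for chromosomes 3 and 14, rested on 1 read pair, and the same pair had 1.67 from 11 read pairs in the map labelled Firre KO.

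**Figure D5:**
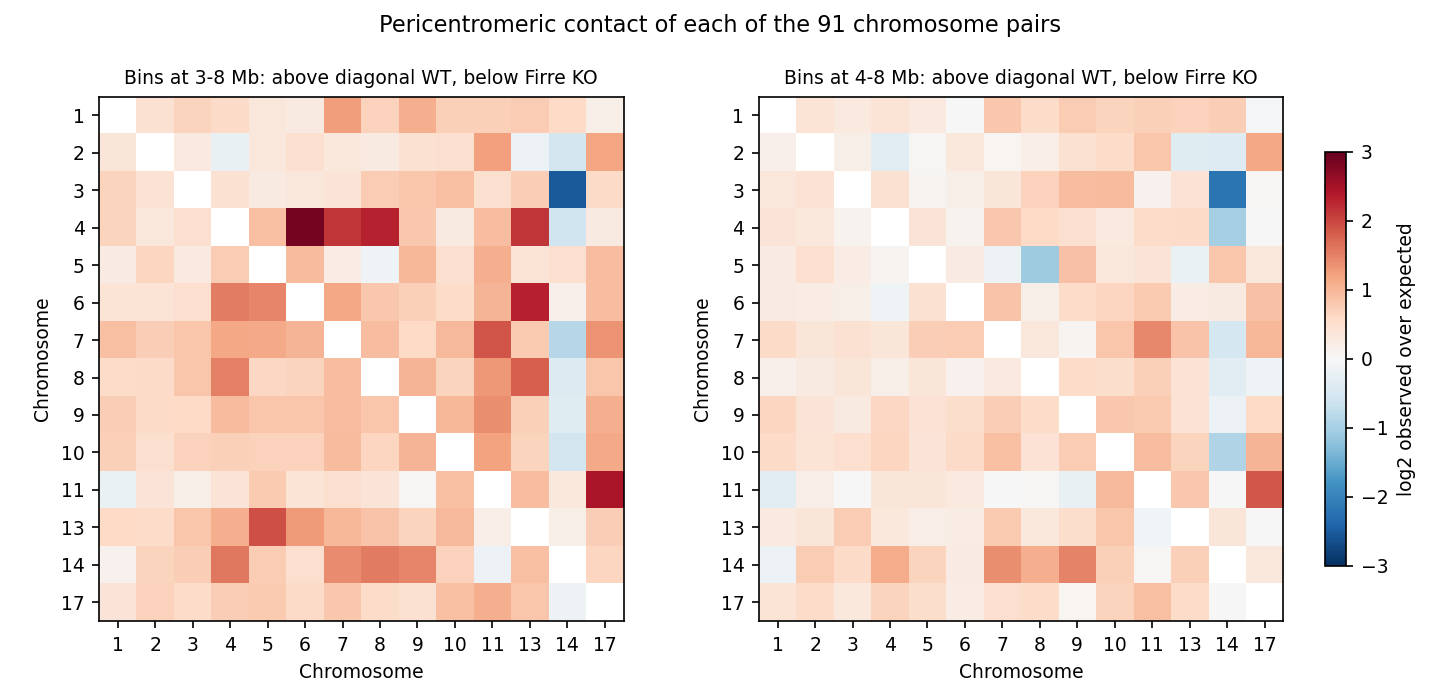
The log2 observed over expected contact between members of each of the 91 chromosome pairs, for bins at 3 to 8 Mb (left) and at 4 to 8 Mb (right); squares above the diagonal are WT and squares below it the map labelled Firre KO, red above and blue below expectation. Most squares are red, the darkest pairs of chromosome 4 on the left fade on the right, and chromosomes 11 and 17 keep a high value, 3.63 in WT, from 4 Mb.

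Windows of 1 Mb located the contact within chromosomes. For each of 1927 windows with at least 10 kept bins on the 14 chromosomes, the contact with members of other chromosomes was divided by the window's own mean interchromosomal contact, and a window was counted if this was at least 1.5. In WT 47 of 67 member windows were counted, against 9.34% of all windows. In the map labelled Firre KO it was 29 of 67, against 4.26%, and 25 of 67 were counted in both, against 3.27%. With members from 4 Mb as partners, 26 of 54 member windows from 4 Mb were counted in WT, against 6.38%, and 7 of 54 in the map labelled Firre KO, against 2.08%. All 7 were also counted in WT, against 1.25% of all windows counted in both. No member window differed by 2-fold or more between the matrices, where 0.104% of all windows were lower and 0% higher by that much in the map labelled Firre KO. With partners from 4 Mb it was 0 of 54, against 0.0519% lower and 0.104% higher.

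The 3 member windows with the highest contact in WT were all first windows. On chromosome 4 the window at 3 to 4 Mb had 5.91 (5.34 to 6.54) in WT and 3.30 (2.96 to 3.68) in the map labelled Firre KO. It holds Lyn, a Src-family tyrosine kinase gene (chr4:3605262-3740269), Tgs1, which encodes an enzyme that methylates the cap of small nuclear RNAs, and Plag1, a zinc finger transcription factor gene. On chromosome 6 it had 5.04 (4.41 to 5.75) and 3.09 (2.76 to 3.47), with Ccdc132, Hepacam2 and the calcitonin receptor gene Calcr. On chromosome 13 it had 4.35 (3.95 to 4.78) and 3.04 (2.83 to 3.28), with Net1, Asb13 and Gdi2, which encodes a GDP dissociation inhibitor of Rab proteins. The genes are named for their position, and their expression was not measured.

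With members from 4 Mb as partners the same 3 windows had 1.99, 1.76 and 1.67 in WT. Over all 13 first windows the median with these partners was 1.73 in WT and 1.57 in the map labelled Firre KO, with ranges of 1.33 to 1.99 and 1.21 to 1.77. The medians of the later classes lay between 1.44 and 1.55 in WT and between 1.27 and 1.37 in the map labelled Firre KO, so the first windows stood highest also against partners outside the first megabase.

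The 3 lowest member windows in WT were on chromosomes 14 and 17. On chromosome 14 the window at 4 to 5 Mb had 0.974 (0.655 to 1.45) in WT and 1.15 (0.822 to 1.61) in the map labelled Firre KO, and that at 7 to 8 Mb had 1.11 (0.814 to 1.52) and 1.55 (1.23 to 1.95). On chromosome 17 the window at 7 to 8 Mb had 1.00 (0.849 to 1.19) and 1.19 (1.04 to 1.36). It holds Rps6ka2, which encodes a ribosomal S6 kinase, Rsph3b, which is named for the radial spokes of cilia, and Rnaset2b, which encodes an RNase. The intervals of all 3 included 1 in WT.

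Windows of chromosome 11 were low in the map labelled Firre KO. At 4 to 5 Mb and 5 to 6 Mb its windows had 0.832 and 0.848 there, the lowest of the 67 members, and 1.32 and 1.30 in WT. At 7 to 8 Mb the window had 1.49 in the map labelled Firre KO and 2.03 in WT. The first window of chromosome 11 held 7216 read pairs with members in WT, the most of any member window, and had a value of 2.31 after correction, with 1.38 from 5863 read pairs in the map labelled Firre KO.

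Far from the ends, 57 of 1407 interior windows in WT and 14 in the map labelled Firre KO were counted, and 5 were in both. Their median was 1.03 in both matrices, where that of member windows was 1.66 in WT and 1.47 in the map labelled Firre KO. The 166 windows at 8 to 20 Mb, next to the members, came close to them, with medians of 1.47 and 1.37. With partners from 4 Mb their medians were 1.38 and 1.30, and those of member windows 1.49 and 1.34. A window at 8 to 20 Mb reached 3.36 in WT, and none there exceeded 1.90 in the map labelled Firre KO. Among the 1407 interior windows the highest in WT was at 98 to 99 Mb of chromosome 2, with 3.05 (2.80 to 3.33) and 2.92 (2.68 to 3.19). Of its 14301 and 1274 read pairs with members, 14227 in WT and 1170 in the map labelled Firre KO came from chr2:98480001-98520000. This is the bin that the satellite bin of chromosome 9 contacted, and 12831 and 1048 of these read pairs were with that satellite bin alone. The bin of chromosome 2 had an observed over expected contact with members of 44.6 and 38.3. It held 6 matches to the CENP-B box, the motif that the centromere protein CENP-B binds in mouse minor satellite DNA.

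The other 2 interior windows lay on chromosome 17. At 39 to 40 Mb the values were 1.81 (1.52 to 2.16) and 1.33 (1.13 to 1.55), and the bin chr17:39960001-40000000, which holds AY036118, had 699 and 458 of the read pairs. At 20 to 21 Mb they were 1.79 (1.43 to 2.23) and 1.44 (1.23 to 1.68), from 146 and 261 read pairs, in a window with Vmn2r107, Vmn2r105 and Vmn2r109, which encode vomeronasal receptors for pheromones.

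Taken over the whole window, members were lower in GC and poorer in genes than interiors and distal ends, but members below 4 Mb were not poorer in genes and were close to interiors in GC. The mean GC content was 41.1% (SD 3.28, n = 1617 bins) in members, 41.9% (SD 4.05) in interiors and 44.1% (SD 4.82) at distal ends. Members had 13.4 HindIII sites per bin, interiors 12.9 and distal ends 12.1. Gene density was 13.7 genes per Mb in members, 15.1 in interiors and 19.1 at distal ends, and it was uneven. Members below 4 Mb had 20.1 genes per Mb and a GC content of 41.8%, and those from 4 Mb had 12.1 and 40.9%. By chromosome, gene density was 39.9 on chromosome 7, 31.2 on chromosome 11 and 4.23 on chromosome 3. Of 886 genes with a start in members, 522 were protein coding and 141 were pseudogenes. Families were found mainly on chromosome 7, which held 20 of 23 vomeronasal receptor genes (Vmn), 16 of 19 zinc finger genes named Zfp and all 8 olfactory receptor genes (Olfr). A CENP-B box, searched on both strands, occurred in 13 members, 0.804%, where it occurred in 0.875% of interior bins.

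GC content moved with interchromosomal contact in general, so members were also compared at like GC. With bins of the 14 chromosomes divided in 5 groups of rising GC, pairs of interior bins of the same group had 0.779, 0.845, 0.912, 1.17 and 1.82 in WT, and 0.959, 0.928, 0.968, 1.11 and 1.57 in the map labelled Firre KO. Members from 4 Mb of the same group had 1.18 (0.719 to 1.92), 1.64 (1.28 to 2.11), 1.49 (1.19 to 1.86), 1.38 (0.991 to 1.92) and 1.88 (1.10 to 3.21) in WT. In the map labelled Firre KO they had 1.95 (1.11 to 3.44), 1.30 (1.10 to 1.55), 1.26 (1.06 to 1.5), 1.10 (0.838 to 1.46) and 2.33 (1.45 to 3.75). The members were above the interiors of the same group in all 5 groups in WT and in 4 of 5 in the map labelled Firre KO, although in each matrix some of these intervals included the interior value. With an expected value taken at the GC of both bins, contact among members was 1.10 on the log2 scale in WT. In the map labelled Firre KO it was 0.83, a difference of -0.27. These values were pooled over bin pairs and not averaged over chromosome pairs, so the weighting changed along with the expected value.

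Members also contacted the pericentromeric bins of the ribosomal DNA chromosomes 12, 15, 16, 18 and 19. Over 3 to 8 Mb this contact was 1.65 (1.60 to 1.71) in WT and 1.65 (1.61 to 1.69) in the map labelled Firre KO, relative to all bin pairs of those chromosome pairs, which are not the pairs behind the values of members among themselves. As a part of the total contact of a bin, which has the same base for both, members had 5.12 ppm with these bins and 5.09 ppm with each other in WT, and 10.8 and 10.7 ppm in the map labelled Firre KO, differences within counting error. From 4 Mb it was 1.19 (1.14 to 1.24) and 1.33 (1.28 to 1.37), a log2 difference between the matrices of 0.16 (0.09 to 0.23), where members among themselves differed by 0.01 (-0.08 to 0.09). Bins of the ribosomal DNA chromosomes among themselves had 2.18 (2.03 to 2.35) in WT and 1.92 (1.83 to 2.02) in the map labelled Firre KO over 3 to 8 Mb. From 4 Mb they had 1.12 (1.05 to 1.21) in WT and 1.44 (1.37 to 1.53) in the map labelled Firre KO. In WT this observed over expected value was lower than the 1.37 of members from 4 Mb, but the contact as a part of the bin total was higher, at 4.58 against 3.79 ppm. In the map labelled Firre KO the observed over expected values were 1.44 and 1.38 and the parts of the total 10.3 and 8.62 ppm.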

How the data were processed

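Hi-C was performed on 2 libraries each of mESCs labelled WT and mESCs labelled Firre KO, and the authors mapped the reads to mm9, filtered and binned them at 40 kb with HiC-Pro 2.7.8, pooled the 2 libraries of a group and applied iterative correction. The deposited matrix values are a corrected signal, in which every kept bin has the same total, and the deposited bin tables hold other values, the start, end and number of each bin. Every value could be written as a whole number of read pairs times a weight of each bin (100% within 0.05), and these read pairs gave the depth and the 95% counting intervals. PCR reads carry no molecular identifiers, so intervals cover counting error only.

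Observed over expected contact was the mean over chromosome pairs of the mean corrected contact of a class, over the same mean of all bin pairs. Windows of 1 Mb were instead set against their own mean interchromosomal contact. Sequence, GC content and genes were read from the mm9 genome and annotation. Genes were named by rule: the 3 longest named protein-coding genes of the 3 highest and 3 lowest member windows and of the 3 highest interior windows in WT. Other genes and bins were named after their values were seen, as the strongest pairs of bins or those next to them. No test across samples was made, since each group was 1 matrix. The members and lists were chosen with earlier results of these data known. Alternatives changed the expected value, the bins, the window and the summary, and left out each chromosome. Columns without a sample numbered 0. Estimates were tested on simulated data in 40 draws. The simulated map had more reads per pair of bins than these data, chromosomes of equal size and no strong pairs of bins. How well the intervals cover in these data was therefore not checked. Python 3.11.15, numpy 2.4.6, pandas 2.3.3 and matplotlib 3.10.9 were used.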

Additional observations from a re-analysis of the deposited data

How the results depend on the processing

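On the log2 scale, contact among members was 0.88 in WT and 0.78 in the map labelled Firre KO (difference -0.11), exceeded contact with distal ends by 0.87 and 0.73, and was lower at 7 to 8 Mb than at 3 to 4 Mb by 3.06 and 1.94. These 6 values stayed above 0 in each alternative run, and the difference changed sign in 3. Of 171 alternative values, 90 moved by less than their counting error, 78 moved further and 3 changed sign. Values below are in that order, WT before the map labelled Firre KO.

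The difference was 0.0503 without bins below 3.2 Mb and 0.00645 without bins below 4 Mb. It was 0.036 with the median of chromosome pairs, each over its own mean, which changed the expected value as well as the summary. Without bins below 3.2 Mb contact was 0.55 and 0.60, the excess over distal ends 0.56 and 0.56, and the slope 1.12 and 0.78. With the median of pairs these were 0.69 and 0.73, 0.72 in WT, and 1.68 and 1.21. Without bins below 4 Mb they were 0.46 and 0.47, and 0.49 and 0.43, with no slope to be had. With the product of totals as the expected value, contact was 0.61 in the map labelled Firre KO, the difference -0.24, the excess 1.24 and 0.89, and the slope 2.20 and 1.49. At like GC they were 1.10 and 0.83, -0.27, and 1.07 and 0.82. With read pairs and the product of totals they were 1.17 in WT, -0.36, 1.69 and 1.13, and 2.04 and 1.68. The settings with GC or totals were pooled over bin pairs, so the weight of chromosome pairs changed too. Without 355 thinly covered members contact was 0.83 and 0.66 and the slope 2.35 in WT. Without bin pairs of 5 or more read pairs contact was 0.77 in WT, the difference -0.0177, the excess 0.75 in WT and the slope 2.30 and 1.69. A window to 6 Mb gave 1.33 and 1.04, -0.29, and 1.24 and 0.97, and one to 13 Mb 0.55 and 0.47, and 0.58 and 0.51. Distal ends of 10 Mb gave an excess of 0.80 in the map labelled Firre KO. Without bins with shared sequence, which like the limit at 4 Mb was chosen after seeing the data, they were 0.60 and 0.59, -0.00932, 0.59 and 0.55, and 1.40 and 0.84. The cause was not tested.

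Leaving out each chromosome in turn gave contact of 0.79 to 0.99 in WT and 0.74 to 0.85 in the map labelled Firre KO, excesses of 0.76 to 0.97 and 0.68 to 0.81, and slopes of 2.32 to 3.29 and 1.62 to 2.15. The difference ran from -0.24 without chromosome 14 to -0.000469 without chromosome 11. No paired analysis was possible because each group was deposited as 1 pooled matrix. The number of read pairs, 17022 and 19952 among members, limits classes narrower than 1 Mb and single chromosome pairs.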
